A study of Homo sapiens with 6 samples.

Results

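The EGR and NR4A families are transcription factors encoded by immediate early genes, and 7 of them (EGR1, EGR2, EGR3, EGR4, NR4A1, NR4A2 and NR4A3) were followed over 6 arrays of a human kidney cell line. Members were found by gene symbol: every probe set whose only symbol in the platform annotation was 1 of the 7 was taken. A probe set is a group of short oligonucleotides on the array that together give 1 intensity for a transcript. This gave 16 probe sets for 6 of the 7 genes, among 19775 genes with a probe set of their own. No probe set carried the symbol EGR2, so EGR2 was not analysed here. The members were chosen with earlier results of these arrays known, among them that EGR1 was higher and NR4A1 lower in cells given hIMP1 Dmut than in mock cells. Their values in that comparison are therefore given as a description, and the other comparisons share arrays with it.

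The cells were transfected with forms of IMP1, an RNA-binding protein encoded by IGF2BP1, or mock transfected. Each group had 2 arrays, and each array carried total RNA of 1 sample. One group was transfected with a construct labelled hIMP1 Dmut, another with a construct labelled hIMP1 wt, and the mock group with an empty vector, so that all 3 groups went through transfection. What Dmut abbreviates, which cell line was used, how long after transfection RNA was taken and whether the arrays of a group came from separate cultures are not given in the labels. The p-values therefore cover the spread between these particular arrays and nothing wider, and that spread may be purely technical. Samples were bulk RNA, in which fewer cells with a transcript and less of the transcript per cell cannot be told apart.

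EGR proteins are zinc finger factors that bind GC-rich DNA, and NR4A proteins are orphan nuclear receptors that bind DNA without a known physiological ligand. Genes of both families are nearly silent in resting cells and are transcribed within minutes of a growth factor, stress or calcium signal, without new protein synthesis. ERK signalling acts on SRF and its ELK partners at CArG boxes, cyclic AMP and calcium act through CREB at CRE sites and through MEF2, and the short-lived transcripts are lost soon after the signal ends. In cultured cells, kidney lines included, EGR1 is widely used as a readout of serum and growth factor signalling.

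Promoter sequences show where those upstream factors can act, and 2 are printed because the EGR1 promoter carries both kinds of site and the NR4A3 promoter only the CRE kind. The sequences are RefSeq's, on build GRCh38.p14, and run 5′ to 3′ along the gene's strand from 250 bases before the start of transcription through the first 50 bases of the transcript. The EGR1 stretch is chr5:138465229-138465528 on the plus strand and the NR4A3 stretch is chr9:99821635-99821934, also on the plus strand. Capitals mark CArG boxes (CC, then 6 letters that are A or T, then GG) and the CRE core TGACG, which reads CGTCA on the opposite strand.
EGR1: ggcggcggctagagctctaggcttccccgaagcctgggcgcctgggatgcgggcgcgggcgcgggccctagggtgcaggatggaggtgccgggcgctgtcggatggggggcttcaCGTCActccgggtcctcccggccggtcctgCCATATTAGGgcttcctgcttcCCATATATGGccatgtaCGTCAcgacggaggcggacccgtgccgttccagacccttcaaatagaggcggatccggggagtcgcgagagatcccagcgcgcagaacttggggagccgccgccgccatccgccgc
NR4A3: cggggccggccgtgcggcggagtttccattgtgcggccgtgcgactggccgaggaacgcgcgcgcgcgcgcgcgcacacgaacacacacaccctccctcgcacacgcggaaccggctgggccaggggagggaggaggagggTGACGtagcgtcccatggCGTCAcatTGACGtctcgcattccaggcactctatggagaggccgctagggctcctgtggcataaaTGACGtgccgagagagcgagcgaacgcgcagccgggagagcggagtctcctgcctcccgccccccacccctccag
The EGR1 stretch held 2 CArG boxes, which began 105 and 83 bases before the start, and 2 CRE cores, at 135 and 66 bases before it. It also held 1 EGR site (GCGNGGGCG) at 198 bases before the start. The NR4A3 stretch held 4 CRE cores, at 109, 91, 83 and 25 bases before the start, and no CArG box.

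**Figure D1:**
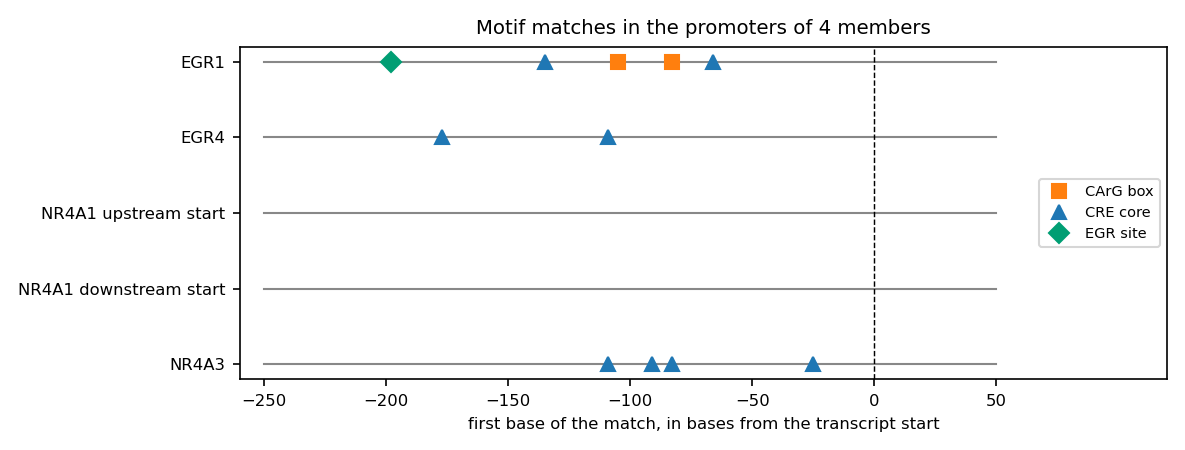
Positions of motif matches in the promoter stretches of the members with an entry, as bases from the start of transcription (horizontal axis, in bases), with 1 row a promoter and 1 marker a match. EGR1 holds 2 CArG boxes, 2 CRE cores and 1 EGR site, EGR4 holds 2 CRE cores, NR4A3 holds 4, and both NR4A1 rows are empty.

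The promoter table had an entry for 4 of the 6 members, with 2 starts for NR4A1. The EGR4 stretch (chr2:73293499-73293798, minus strand) held 2 CRE cores, at 177 and 109 bases before the start. Neither NR4A1 stretch (chr12:52022582-52022881 and chr12:52037465-52037764, plus strand) held any of the motifs searched. No member stretch held the full CRE (TGACGTCA, which contains the core) or the NBRE (AAAGGTCA), the site that NR4A proteins bind as monomers. Both strands were searched, and the same motifs were counted in all 35116 promoters of the table. A CArG box was present in 1.293% of them, a CRE core in 24.55%, a full CRE in 1.848%, an EGR site in 9.434% and an NBRE in 1.216%. A match is a run of letters and does not show that a factor is bound there. EGR3 and NR4A2 are named only.

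The deposited intensities are on a linear scale, and the arrays were alike in overall level. Array medians were 26.7 to 33.7, and the mean with 2% trimmed at either end was 150.02 throughout. Arrays with the same replicate number but different transfections correlated at 0.970 to 0.980 over the kept probe sets, against 0.963 to 0.964 for arrays of the same transfection. IGF2BP1 itself averaged 277 ± 15.2 in hIMP1 Dmut cells, 276 ± 71.0 in hIMP1 wt cells and 269 ± 54.0 in mock cells at its brightest probe set (SD, n = 2 each). At its second probe set it averaged 199 ± 68.7 with hIMP1 Dmut, 195 ± 82.1 with hIMP1 wt and 141 ± 67.1 in mock cells, and at its dimmest 15.8 ± 8.27, 21.8 ± 25.3 and 18.5 ± 20.3 in the same groups. Whether these probe sets read the transfected constructs is not known. Of the embryonic kidney markers 7 of 9 with a probe set passed the filter on dim probe sets, and of the epithelial markers 4 of 5. Smaller shares of the markers of other cells passed: 2 of 5 of the kidney tubule, 2 of 5 of blood and 2 of 6 of fibroblasts. For endothelium 1 of 4 passed, and for neurons and glia 3 of 7. Of all 19775 genes with a probe set of their own 12269 passed, and lists this short say little about the cells. Single markers of other cells differed widely in signal. The neurofilament gene NEFL had 1080 to 1492 over the 6 arrays, while HBB, a haemoglobin gene, had 34.9 to 86.9. CD3E, a T cell gene, had 6.30 to 57.1, which reaches well under the array medians, and the monocyte gene CD14 had 0.649 to 1.95.

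The filter kept the brighter 27307 of the 54613 probe sets that are no controls, by mean log2 intensity over all 6 arrays. Before log2 was taken, 9.04 (the lower quartile of all values) was added to each intensity as an offset, which makes differences of dim probe sets smaller. Of the 16 member probe sets 9 passed the filter: 3 for EGR1, 2 for NR4A2 and 1 each for EGR3, EGR4, NR4A1 and NR4A3. The dimmest inside was NR4A3 at 207978_s_at, with a mean log2 value of 5.27, and the brightest outside was NR4A2 at 204621_s_at, with 5.18.

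**Figure D2:**
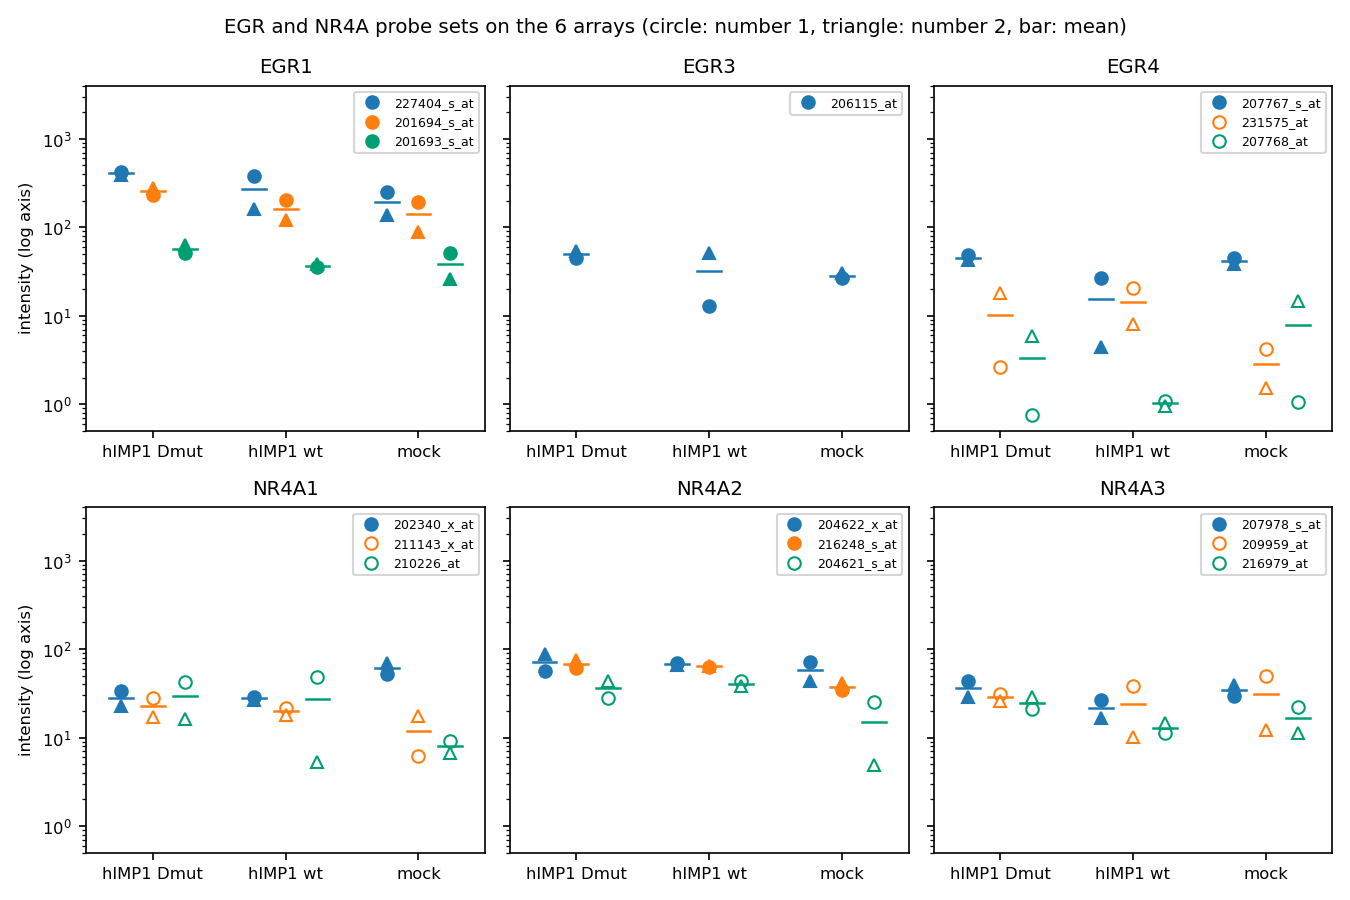
Deposited intensity (log axis) of every member probe set on the 6 arrays, for hIMP1 Dmut, hIMP1 wt and mock from left to right, with a circle for replicate 1, a triangle for replicate 2, a bar at each mean, and open symbols for probe sets that did not pass the filter. EGR1 at 227404_s_at stands at 419 and 393 with hIMP1 Dmut, and NR4A1 at 202340_x_at stands at 51.9 and 69.6 in mock cells, above all 4 other arrays.

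EGR1, the zinc finger factor that serum and growth factors induce, had its highest values with hIMP1 Dmut. At its brightest probe set, 227404_s_at, the intensity was 419 and 393 in hIMP1 Dmut replicates 1 and 2, 381 and 160 in hIMP1 wt replicates 1 and 2, and 250 and 139 in mock replicates 1 and 2. Both hIMP1 Dmut arrays lay above all 4 others, but hIMP1 wt replicate 1 came close to them, and the hIMP1 wt and mock arrays overlapped. Group means were 406 ± 18.6 for hIMP1 Dmut, 270 ± 157 for hIMP1 wt and 195 ± 78.8 for mock (SD, n = 2 each).

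For hIMP1 Dmut minus mock the log2 difference of EGR1 at this probe set was 1.08 ± 0.38 (SE), with a 95% interval of 0.23 to 1.93 and 2.11-fold on this scale. A difference this high or higher was found for 0.359% of the kept probe sets. EGR1 was chosen with this rise known, so nothing is read from that share. The difference was 0.72 between the arrays numbered 1 and 1.44 between those numbered 2. It was 0.68 with mock replicate 2 left out and 1.49 with mock replicate 1 left out. Mock replicate 2 and hIMP1 wt replicate 2, where EGR1 was lowest, were also the arrays with the lowest medians, 28.6 and 26.7. After quantile scaling, which gives all arrays the same distribution, the difference was 1.06, and with each array scaled to the same median it was 1.01.

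The second EGR1 probe set, 201694_s_at, ordered the groups alike. It had 232 and 277 with hIMP1 Dmut, 202 and 120 with hIMP1 wt, and 195 and 88.1 in mock cells, and the hIMP1 Dmut arrays were again the highest of the 6. The dimmest, 201693_s_at, had 50.6 and 63.3 with hIMP1 Dmut, 35.3 and 38.2 with hIMP1 wt, and 51.0 and 26.1 in mock cells. There mock replicate 1 lay slightly above hIMP1 Dmut replicate 1, so hIMP1 Dmut overlapped with mock but not with hIMP1 wt. The log2 differences of hIMP1 Dmut minus mock were 0.90 ± 0.36 at 201694_s_at and 0.52 ± 0.37 at 201693_s_at.

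For hIMP1 wt minus mock EGR1 differed by 0.39 ± 0.38 (95% interval -0.46 to 1.24) at 227404_s_at, 0.23 ± 0.36 at 201694_s_at and -0.01 ± 0.37 at 201693_s_at. At 227404_s_at the value turned on single arrays: it was -0.22 without hIMP1 wt replicate 1, -0.02 when mock replicate 2 was dropped and 0.99 without hIMP1 wt replicate 2. For hIMP1 Dmut minus hIMP1 wt it was 0.69 ± 0.38 (-0.16 to 1.54), and 0.67 ± 0.36 and 0.52 ± 0.37 at the other probe sets. It was 0.09 without hIMP1 wt replicate 2 and 1.30 without hIMP1 wt replicate 1, so its size also turned on the spread between the hIMP1 wt arrays.

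EGR3, an EGR factor that follows EGR1 in many cell types, was read by 1 probe set, 206115_at. Its intensity was 45.0 and 53.7 with hIMP1 Dmut, 12.8 and 50.9 with hIMP1 wt, and 26.6 and 30.1 in mock cells. The hIMP1 Dmut arrays lay above the mock arrays, while the hIMP1 wt arrays held both the lowest value and one within the hIMP1 Dmut range. The log2 difference was 0.64 ± 0.48 (-0.43 to 1.71) for hIMP1 Dmut minus mock, with 0.60 and 0.68 for the arrays numbered 1 and 2. For hIMP1 wt minus mock it was -0.05 ± 0.48, and it was 0.68 without hIMP1 wt replicate 1, -0.77 without hIMP1 wt replicate 2 and 0.02 with mock replicate 2 left out. That small difference also took the other sign after median scaling. For hIMP1 Dmut minus hIMP1 wt it was 0.69 ± 0.48, against -0.04 without hIMP1 wt replicate 1 and 1.41 without hIMP1 wt replicate 2.

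EGR4, an EGR factor best known from neurons and the testis, did not share the EGR1 pattern at its brightest probe set. At 207767_s_at the intensity was 48.7 and 42.2 with hIMP1 Dmut, 26.5 and 4.40 with hIMP1 wt, and 45.0 and 38.8 in mock cells. Both hIMP1 wt arrays lay below all 4 others, and the hIMP1 Dmut and mock arrays overlapped. The lowest value, 4.40 on hIMP1 wt replicate 2, lay under the offset of 9.04.

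The log2 difference of EGR4 at this probe set was 0.10 ± 0.48 for hIMP1 Dmut minus mock, -1.22 ± 0.48 (-2.30 to -0.14) for hIMP1 wt minus mock and 1.31 ± 0.48 (0.24 to 2.39) for hIMP1 Dmut minus hIMP1 wt. Of the kept probe sets 0.125% were as low or lower in hIMP1 wt minus mock, and 0.110% as high or higher in hIMP1 Dmut minus hIMP1 wt. This probe set passed the filter only through its hIMP1 Dmut and mock values, so nothing is read from these shares. Without hIMP1 wt replicate 2 the differences in those comparisons were -0.52 and 0.61. Without hIMP1 wt replicate 1 they were -1.92 and 2.02. The dim EGR4 probe sets did not pass the filter and did not repeat this order. At 231575_at the values were 2.66 and 18.0 with hIMP1 Dmut, 20.6 and 8.00 with hIMP1 wt, and 4.16 and 1.53 in mock cells, so that hIMP1 wt lay above mock there. At 207768_at they were 0.755 and 5.88 with hIMP1 Dmut, 1.10 and 0.952 with hIMP1 wt, and 1.06 and 14.5 in mock cells, and no group with hIMP1 stood apart from mock. Averaged over all EGR4 probe sets, the difference was -0.30 for hIMP1 wt minus mock and 0.41 for hIMP1 Dmut minus hIMP1 wt.

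NR4A1, also called Nur77, is an orphan receptor involved in apoptosis, metabolism and T cell responses. Its brightest probe set ran opposite to EGR1 in hIMP1 Dmut minus mock. At 202340_x_at the intensity was 33.4 and 22.9 with hIMP1 Dmut, 28.7 and 26.9 with hIMP1 wt, and 51.9 and 69.6 in mock cells. Both mock arrays lay above all 4 arrays with an hIMP1 construct, and the hIMP1 Dmut and hIMP1 wt arrays overlapped. Group means were 28.2 ± 7.41 for hIMP1 Dmut, 27.8 ± 1.28 for hIMP1 wt and 60.8 ± 12.5 for mock (SD, n = 2 each).

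The log2 difference of NR4A1 was -0.91 ± 0.36 for hIMP1 Dmut minus mock (-1.72 to -0.10) and -0.91 ± 0.36 for hIMP1 wt minus mock (-1.72 to -0.10), 2 comparisons that share the mock arrays. Leaving out 1 array at a time, it stayed between -1.12 and -0.71 for hIMP1 Dmut minus mock and between -1.10 and -0.73 for hIMP1 wt minus mock. For hIMP1 Dmut minus hIMP1 wt the interval was -0.81 to 0.81, which leaves room for a difference of either sign. The other NR4A1 probe sets went the other way and did not pass the filter. At 211143_x_at the values were 28.0 and 17.2 with hIMP1 Dmut, 21.6 and 18.2 with hIMP1 wt, and 6.12 and 17.5 in mock cells, with hIMP1 wt above mock and hIMP1 Dmut overlapping it. At 210226_at they were 42.5 and 16.4 with hIMP1 Dmut, 48.8 and 5.30 with hIMP1 wt, and 9.14 and 6.73 in mock cells, with hIMP1 Dmut above mock and hIMP1 wt overlapping it. Averaged over all NR4A1 probe sets, the difference was 0.27 for hIMP1 Dmut minus mock and 0.13 for hIMP1 wt minus mock, so the direction at NR4A1 held for its brightest probe set only. A name ending in _x_at marks a probe set with probes that can also match other sequences, and _s_at one that can read several transcripts.

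NR4A2, or Nurr1, is the receptor needed for midbrain dopamine neurons, and it was higher with either hIMP1 construct at 216248_s_at. Its intensity there was 61.5 and 74.3 with hIMP1 Dmut, 63.3 and 63.8 with hIMP1 wt, and 34.2 and 40.9 in mock cells. All 4 arrays with a construct lay above both mock arrays. The brightest probe set, 204622_x_at, had 56.7 and 87.2 with hIMP1 Dmut, 69.8 and 65.6 with hIMP1 wt, and 70.5 and 44.1 in mock cells, and all 3 groups overlapped. At 204621_s_at, just outside the filter, the values were 27.6 and 44.0 with hIMP1 Dmut, 43.0 and 38.5 with hIMP1 wt, and 25.4 and 4.92 in mock cells, and the mock arrays were again the lowest.

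The log2 differences of NR4A2 in hIMP1 Dmut minus mock were 0.29 ± 0.34 at 204622_x_at, 0.72 ± 0.31 (0.04 to 1.41) at 216248_s_at and 1.01 ± 0.54 at 204621_s_at. For hIMP1 wt minus mock they were 0.24 ± 0.34, 0.64 ± 0.31 (-0.04 to 1.33) and 1.18 ± 0.54 at the same probe sets. The value at 216248_s_at was alike in both replicate numbers: 0.71 and 0.74 for hIMP1 Dmut minus mock, and 0.74 and 0.55 for hIMP1 wt minus mock. At the brightest probe set the values turned on single arrays. With hIMP1 Dmut minus mock the difference was 0.0004 when mock replicate 2 was dropped, 0.02 when hIMP1 Dmut replicate 2 was, 0.58 when mock replicate 1 was and 0.57 when hIMP1 Dmut replicate 1 was. With hIMP1 wt minus mock it was -0.05 when mock replicate 2 was dropped and 0.53 when mock replicate 1 was. Averaged over all NR4A2 probe sets, the difference was 0.67 for hIMP1 Dmut minus mock and 0.69 for hIMP1 wt minus mock. For hIMP1 Dmut minus hIMP1 wt the differences were 0.05 ± 0.34, 0.08 ± 0.31 and -0.17 ± 0.54.

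NR4A3, or NOR1, the receptor known from vascular and blood cells and from fusion genes in sarcoma, was lowest with hIMP1 wt at 207978_s_at. Its intensity was 43.9 and 28.6 with hIMP1 Dmut, 26.6 and 16.4 with hIMP1 wt, and 29.5 and 39.2 in mock cells. The hIMP1 wt arrays lay below all 4 others, and the hIMP1 Dmut and mock arrays overlapped, as for EGR4. The log2 difference was 0.05 ± 0.40 for hIMP1 Dmut minus mock, -0.52 ± 0.40 (-1.42 to 0.38) for hIMP1 wt minus mock and 0.57 ± 0.40 (-0.33 to 1.47) for hIMP1 Dmut minus hIMP1 wt. The first of these, close to 0, took the other sign after median scaling and without hIMP1 Dmut replicate 1 (-0.20) or mock replicate 1 (-0.11). For hIMP1 wt minus mock the value was -0.27 when hIMP1 wt replicate 2 was dropped and -0.76 when hIMP1 wt replicate 1 was, and for hIMP1 Dmut minus hIMP1 wt it was 0.32 when either hIMP1 Dmut replicate 1 or hIMP1 wt replicate 2 was dropped and 0.81 when either of the other arrays was. At 209959_at the values were 31.2 and 25.6 with hIMP1 Dmut, 37.8 and 10.2 with hIMP1 wt, and 49.8 and 12.1 in mock cells, and all groups overlapped. At 216979_at they were 21.1 and 28.5 with hIMP1 Dmut, 11.1 and 14.8 with hIMP1 wt, and 22.1 and 11.3 in mock cells, with hIMP1 Dmut above hIMP1 wt only.

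**Figure D3:**
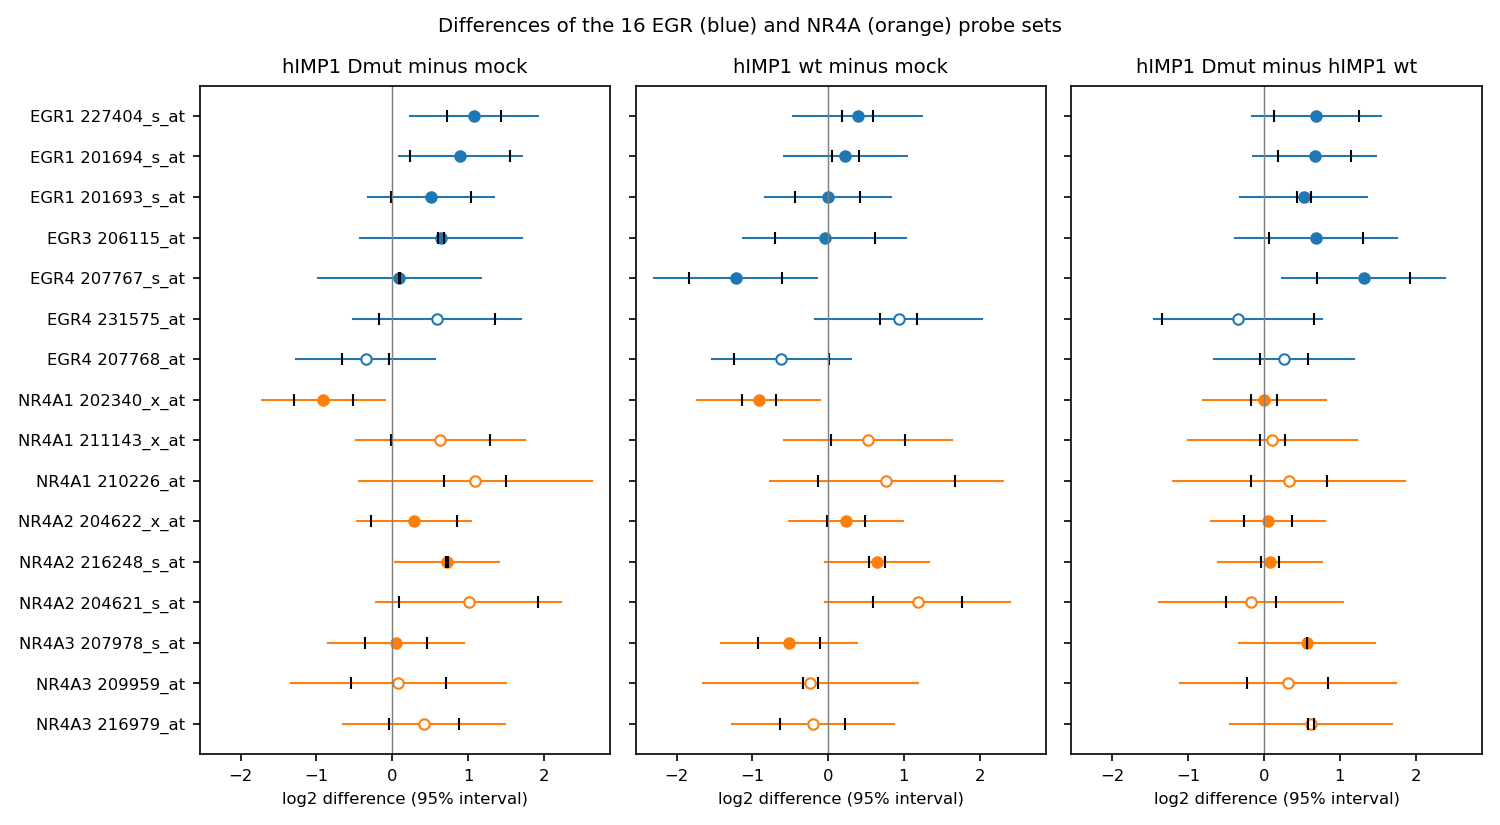
Log2 difference of all 16 member probe sets (filled points for the 9 that passed the filter, open for the others) with 95% intervals (lines) and the differences within each replicate number (ticks), EGR in blue and NR4A in orange, for hIMP1 Dmut minus mock, hIMP1 wt minus mock and hIMP1 Dmut minus hIMP1 wt. EGR1 at 227404_s_at reaches 1.08 in hIMP1 Dmut minus mock and NR4A1 at 202340_x_at lies at -0.91 in both comparisons with mock.

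None of the 9 kept member probe sets passed an adjusted p of 0.05 in any comparison. The test was limma's moderated test over all 27307 kept probe sets, with Benjamini-Hochberg adjustment. It called 2 probe sets, or 0.00732%, in hIMP1 Dmut minus mock, 2 (0.00732%) in hIMP1 wt minus mock and 0 (0%) in hIMP1 Dmut minus hIMP1 wt. The smallest adjusted p of a member in limma's fit was 1 in both comparisons with mock and 0.9999 in hIMP1 Dmut minus hIMP1 wt. After adjustment over all kept probe sets no member difference was called, although the unadjusted 95% intervals of some, given above, do not include 0. At an unadjusted p under 0.05, 4 of the 9 passed in hIMP1 Dmut minus mock (2 of EGR1, NR4A1 at 202340_x_at and NR4A2 at 216248_s_at), where 1.42% of all kept probe sets did. In hIMP1 wt minus mock 2 of the 9 did (EGR4 and NR4A1), against 1.03% of all, and in hIMP1 Dmut minus hIMP1 wt 1 did (EGR4), against 1.23% of all. Since the members were chosen on hIMP1 Dmut minus mock and the comparisons share arrays, nothing is read from these counts.

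Groups of 2 arrays often separate, and the members are to be read against that. In hIMP1 Dmut minus mock both hIMP1 Dmut arrays lay above both mock arrays for 4 of the 9 probe sets (12.6% of all kept probe sets) and below them for 1 (11% of all). In hIMP1 wt minus mock both hIMP1 wt arrays lay above for 1 (9.72% of all) and below for 3 (11.6% of all), those of EGR4, NR4A1 and NR4A3. In hIMP1 Dmut minus hIMP1 wt both hIMP1 Dmut arrays lay above for 5 (13.1% of all) and below for 0 (8.89% of all). The 5 were all 3 of EGR1, EGR4 and NR4A3, and probe sets of 1 gene share its transcript and are not independent. EGR4 and NR4A3 passed the filter only through their hIMP1 Dmut and mock values, so nothing is read from the counts with hIMP1 wt.

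The median log2 difference of the 9 member probe sets was 0.52 in hIMP1 Dmut minus mock, -0.01 in hIMP1 wt minus mock and 0.57 in hIMP1 Dmut minus hIMP1 wt. Over all kept probe sets the medians were 0.01, -0.01 and 0.02. Differences were above 0 for 8 of the 9 in hIMP1 Dmut minus mock (51.8% of all kept probe sets), 4 in hIMP1 wt minus mock (47.6%) and 9 in hIMP1 Dmut minus hIMP1 wt (54.1%). Over all 16 member probe sets, dim ones included, they were above 0 for 14, 8 and 14 in the same order of comparisons. The share above 0 over all probe sets without the filter was not computed. The members were chosen with hIMP1 Dmut minus mock in view, and several of the 9 probe sets read EGR1. EGR4 and NR4A3 passed the filter only through their hIMP1 Dmut and mock values. Since the 16 also come from only 6 genes, nothing is read from these counts or from the medians of the 9. Scaling each array to the same median moved the median of all probe sets in hIMP1 Dmut minus hIMP1 wt by -0.12, and NR4A1 and NR4A2 at their brightest probe sets, which lay at about 0 in that comparison, then took the other sign. The median SE of a log2 difference was 0.28.

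**Figure D4:**
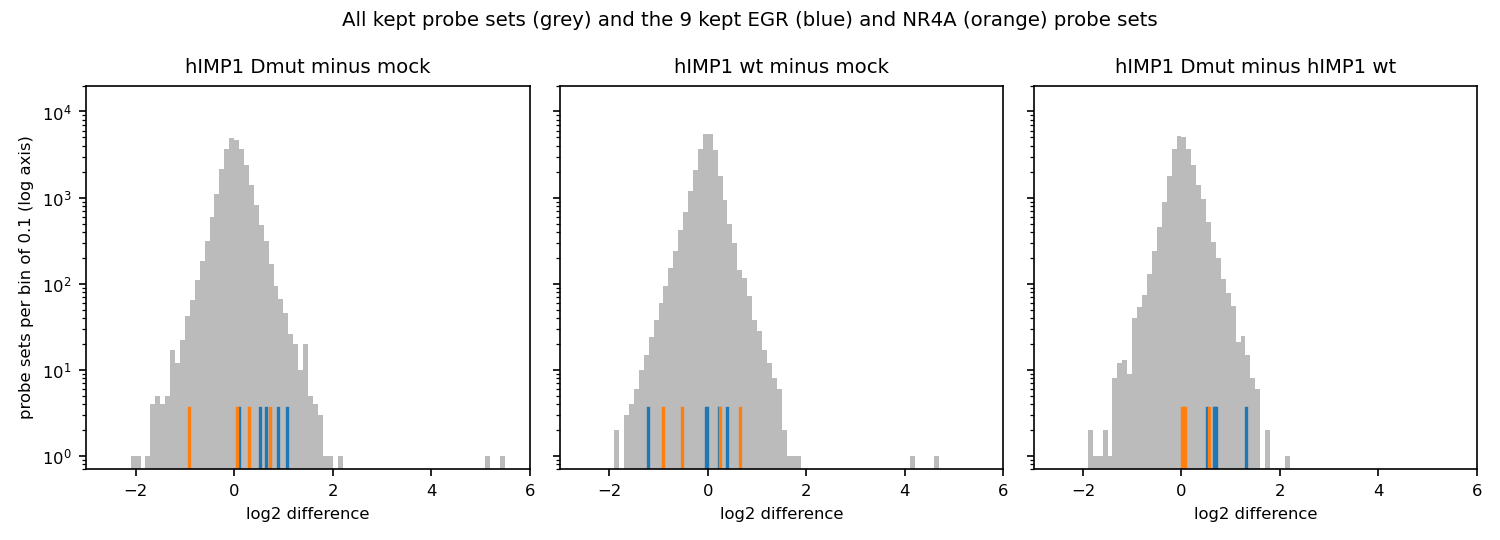
Number of kept probe sets by log2 difference (grey bars, log axis) with the 9 kept member probe sets as lines, EGR in blue and NR4A in orange, for hIMP1 Dmut minus mock, hIMP1 wt minus mock and hIMP1 Dmut minus hIMP1 wt. The members spread from -0.91 to 1.08 in hIMP1 Dmut minus mock, within the wider spread of all kept probe sets, whose median is 0.01.

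The 9 gene lists held genes whose products act on or with the EGR and NR4A factors, other immediate early genes, and reported target genes. Each gene was read by its brightest kept probe set. For some of them another kept probe set had the opposite sign in hIMP1 Dmut minus mock. Among these were CREB1, CREM, ELK4, MRTFB, CRTC3, MEF2C, RXRB and BIRC5. None of the 89 genes measured passed an adjusted p of 0.05 in limma's fit in any comparison, and 1 in each had an unadjusted p under 0.05. That gene was FOSL1 in hIMP1 Dmut minus mock and SLC6A3 in both comparisons with hIMP1 wt. Of all kept probe sets 1.42% had such a p in hIMP1 Dmut minus mock. The shares were 1.03% in hIMP1 wt minus mock and 1.23% in hIMP1 Dmut minus hIMP1 wt. Beside these shares nothing is read from 1 gene of 89. All lists are read beside all 12269 measured genes, whose median log2 difference was -0.00608 in hIMP1 Dmut minus mock and -0.01 in hIMP1 wt minus mock, with 48.7% and 46.5% of genes above 0. In hIMP1 Dmut minus hIMP1 wt the median was 0.01, with 52.4% above 0.

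Of the corepressors that bind EGR proteins, NAB1 differed by 0.08 ± 0.30 and NAB2, itself a reported EGR target, by -0.29 ± 0.31 in hIMP1 Dmut minus mock. SRF, the factor that binds CArG boxes, differed by -0.18 ± 0.28 with hIMP1 Dmut. Its cofactors lay between -0.19 for MRTFA and 0.17 for ELK1, with ELK3 at 0.03, ELK4 at 0.07 and MRTFB at 0.10. The median of SRF and its cofactors was 0.05 in hIMP1 Dmut minus mock and 0.10 in hIMP1 wt minus mock. All 6 lay closer to 0 in hIMP1 Dmut minus mock than the median SE.

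Of the CREB and MEF2 activators 8 of 10 were measured, 4 of them above 0 and 4 below in hIMP1 Dmut minus mock. The others had no probe set of their own. CREB1, which binds CRE sites, differed by 0.27 ± 0.31, CREM, its close relative, by 0.04, and the CREB coactivators CRTC1, CRTC2 and CRTC3 by 0.05, -0.46 ± 0.26 and -0.09. MEF2A, MEF2C and MEF2D, the calcium-regulated factors upstream of NR4A1, differed by 0.21, -0.03 and -0.34 ± 0.44. Both CRTC2 arrays with hIMP1 Dmut lay below both mock arrays, and its difference for hIMP1 wt minus mock was -0.31 ± 0.26. RXRA and RXRB, nuclear receptors that pair with NR4A1 and NR4A2, differed by -0.17 and 0.13 in hIMP1 Dmut minus mock.

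In the ERK cascade 12 of 17 genes were measured, and the others had no probe set of their own. In hIMP1 Dmut minus mock 5 were above 0 and 7 below, with a median of -0.01. In hIMP1 wt minus mock 4 were above and 8 below, with a median of -0.04. HRAS, the small GTPase at the top of the cascade, differed by -0.28 ± 0.19 and MAPK3, which encodes ERK1, by -0.33 ± 0.26 with hIMP1 Dmut. Of the kinases that ERK activates, RPS6KA1 differed by 0.29 ± 0.29 and RPS6KA4 by -0.25 ± 0.31. The feedback inhibitors of ERK, which ERK signalling itself induces, were above 0 for 10 of 12 measured in hIMP1 Dmut minus mock (median 0.32) and for 10 of 12 in hIMP1 wt minus mock (median 0.16), 2 comparisons that share the mock arrays. In hIMP1 Dmut minus hIMP1 wt 9 of 12 were above 0, with a median of 0.11. In hIMP1 Dmut minus mock SPRY2, an inhibitor of receptor tyrosine kinase signalling, differed by 0.43 ± 0.23, and the ERK phosphatase DUSP6 by 0.69 ± 0.45. SPRED1, a relative of SPRY2, differed by 0.41 ± 0.33 and DUSP5, a nuclear ERK phosphatase, by 0.46 ± 0.37. Only for SPRY2 of these 4 did both hIMP1 Dmut arrays lie above both mock arrays. DUSP1, DUSP4 and DUSP6 each had another kept probe set of the opposite sign in hIMP1 Dmut minus mock, and DUSP4 also in hIMP1 wt minus mock. The counts for this list hold for the brightest probe sets only.

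Of the AP-1 and other immediate early genes 32 of 36 were measured, 26 above 0 and 6 below in hIMP1 Dmut minus mock (median 0.11), and 20 above and 12 below in hIMP1 wt minus mock (median 0.04). FOSL1, an AP-1 subunit, averaged 44.7 with hIMP1 Dmut, 41.4 with hIMP1 wt and 19.7 in mock cells. In mock cells it lay under the filter's cut, so it passed only through arrays with a construct, and nothing is read from its differences. Its log2 difference was 0.89 ± 0.40 for hIMP1 Dmut minus mock and 0.77 ± 0.40 for hIMP1 wt minus mock, and for both the arrays lay above the mock arrays. FOSL2, its relative, differed by 0.87 ± 0.41 with hIMP1 Dmut and 0.63 ± 0.41 with hIMP1 wt. The AP-1 subunits JUN and JUND differed by 0.47 ± 0.25 and 0.29 ± 0.18 with hIMP1 Dmut, and the JUN arrays overlapped.

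Genes reported as targets of EGR proteins were above 0 for 6 of 12 measured in hIMP1 Dmut minus mock, with a median of -0.00757, and for 5 of 12 in hIMP1 wt minus mock, with a median of -0.13. HPSE, the heparan sulphate cleaving enzyme heparanase, differed by 0.66 ± 0.41, ID3, an inhibitor of helix-loop-helix factors, by -0.17 ± 0.17 and CCND1, the cell cycle regulator cyclin D1, by -0.17 ± 0.19 with hIMP1 Dmut. Of the reported NR4A targets 5 of 11 were measured, 1 above 0 and 4 below in both comparisons with mock. In hIMP1 Dmut minus mock BDNF, a neurotrophin, differed by 0.96 ± 0.57, BIRC5, the apoptosis inhibitor survivin, by -0.27 ± 0.18, SLC18A2, a vesicular monoamine transporter, by -0.25 ± 0.47 and ENO3, a muscle enolase, by -0.08 ± 0.30. SLC6A3, the dopamine transporter, was singled out after its values were seen. It averaged 54.9 with hIMP1 Dmut, 13.6 with hIMP1 wt and 53.5 in mock cells, with a log2 difference of -1.50 ± 0.50 for hIMP1 wt minus mock and 1.48 ± 0.50 for hIMP1 Dmut minus hIMP1 wt. Like EGR4 it was lowest on the hIMP1 wt arrays, at an intensity close to the offset. It passed the filter only through its hIMP1 Dmut and mock values, as EGR4 did. HPSE averaged 23.2 and BDNF 24.1 in mock cells, under the filter's cut, so both passed only through arrays with a construct. Nothing is read from the differences of SLC6A3, HPSE and BDNF.

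**Figure D5:**
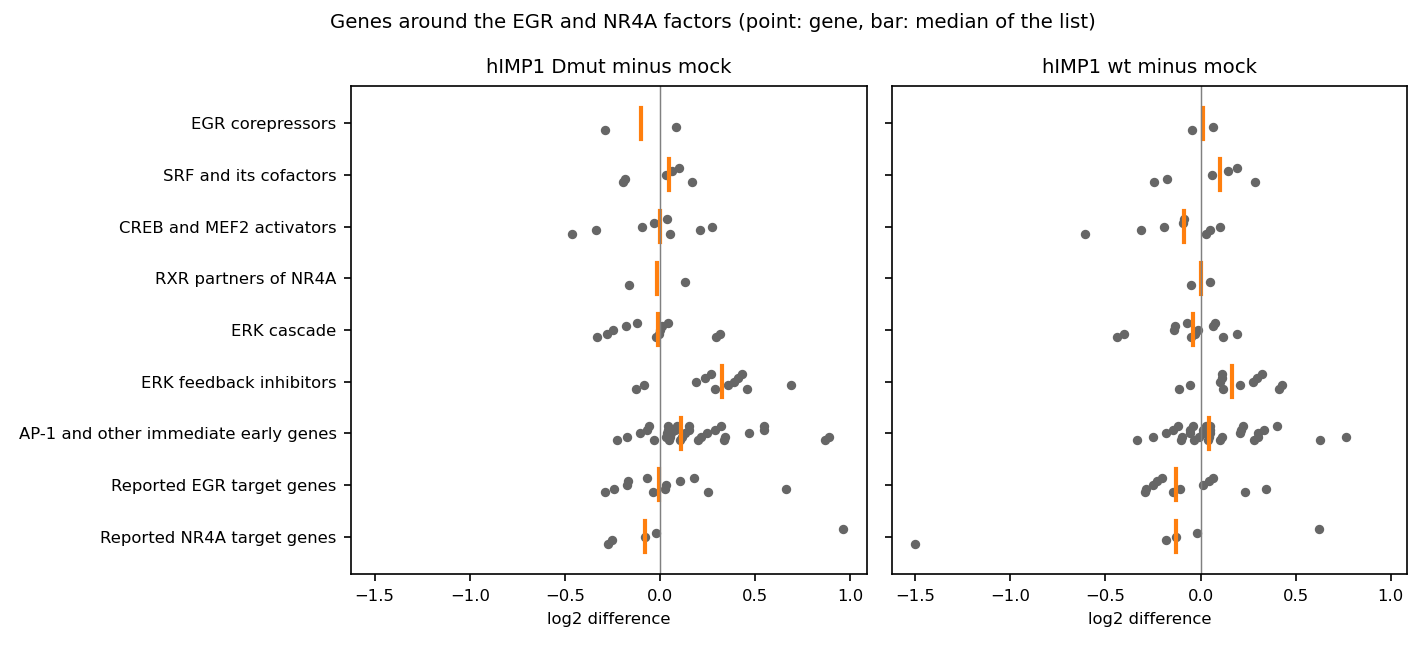
Log2 difference of each measured gene (points) of the 9 lists, with a bar at each list's median, for hIMP1 Dmut minus mock and hIMP1 wt minus mock. The ERK feedback inhibitors have medians of 0.32 and 0.16, and the other lists lie closer to 0 in hIMP1 Dmut minus mock.

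Genes whose brightest kept probe set followed a member most closely over the 6 arrays were found by Pearson correlation of log2 values, as a description over 12263 other measured genes. For EGR1 at 227404_s_at they were PCDHGC3 (r = 0.9995), a protocadherin, HNRNPR (0.9921), an RNA-binding protein of the nucleus, and CFLAR (0.9916), an inhibitor of caspase 8 activation. HNRNPR followed EGR1 with a much smaller span, with mean intensities of 5349 for hIMP1 Dmut, 5082 for hIMP1 wt and 5005 for mock. For NR4A1 at 202340_x_at they were CBLL1-AS1 (0.992), an antisense RNA, TCF7L2 (0.9723), a factor of WNT signalling, and TPRA1 (0.9624), a membrane protein. The correlations share the arrays and their overall levels, and with 6 arrays many genes come close: 206 genes had r over 0.9 with EGR1 and 45 with NR4A1.

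Summed intensities of markers of other cells were set beside the members, since EGR1 was highest with hIMP1 Dmut. The 5 kidney tubule markers summed to 161 to 165 with hIMP1 Dmut, 95.9 to 125 with hIMP1 wt and 124 to 134 in mock cells, and the hIMP1 Dmut arrays did not overlap with the others. The defining tubule markers other than LRP2 and AQP2 did not pass the filter. Their signal was low, with AQP2 at 6.20 to 58.2 and AQP1 at 7.59 to 55.6 over all arrays. Of single kept probe sets, 12.6% had both hIMP1 Dmut arrays above both mock arrays and 13.1% above both hIMP1 wt arrays. No such share was computed for sums. Blood markers summed to 124 to 145 with hIMP1 Dmut, 87.5 to 136 with hIMP1 wt and 81.5 to 130 in mock cells, and fibroblast markers to 254 to 326, 194 to 274 and 184 to 272 in the same groups, with overlap between groups. Endothelial markers summed to 72.0 to 79.5 with hIMP1 Dmut, 33.6 to 91.3 with hIMP1 wt and 52.7 to 70.5 in mock cells, with hIMP1 Dmut above mock but not above hIMP1 wt, and with CDH5 at 0.551 to 5.20. Neural markers summed to 1356 to 1619 with hIMP1 Dmut, 1297 to 1705 with hIMP1 wt and 1461 to 1724 in mock cells, and all groups overlapped. The part of these markers in the EGR1 values was not tested.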

How the data were processed

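The 6 arrays are 1-colour arrays of total RNA from a kidney line, 2 for each of hIMP1 Dmut, hIMP1 wt and mock. The description of each sample gave its group and the title its replicate number. The authors deposited 1 intensity on a linear scale for each of 54675 probe sets, with software and scaling that are not given here in any source used. All 6 deposited columns were used. The number of arrays limits the precision.

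Values were used as deposited, as log2(intensity + 9.04), without the 62 control probe sets. Probe sets were kept at or above the median mean log2 value (5.19), which left 27307. The comparisons used limma 3.58.1 (R 4.3.3; lmFit, eBayes with an intensity trend) in 1 fit of all 6 arrays with a coefficient per group, 3 residual degrees of freedom and a prior of 7.03. Two-sided p-values were adjusted by Benjamini-Hochberg over all kept probe sets and held against 0.05. Values of dim probe sets come from the same fit without the filter. The fit was also run on simulated data, with an outcome not reported here. Their noise was independent between arrays and did not copy the closer match of arrays with the same replicate number.

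GEO's platform annotation gave the gene symbols: exactly 1 for 41091 probe sets, more for 1801 and none for 11721. A match in the RefSeq table of GRCh38.p14 was found for 41037 of the first kind, with 0 symbols changed. No member occurred in a probe set with several symbols.

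The members and the 9 gene lists were chosen with earlier results of these data known. Every member probe set is given, each member led by its brightest. Corepressors, upstream factors and RXR partners are named where measured, with up to 4 genes of each other list, those of largest moderated statistic in hIMP1 Dmut minus mock, and the 3 genes most like EGR1 and NR4A1. Each comparison holds only 2 pairs of arrays with a shared number and no label says what a number marks, so the numbers were not taken to pair the samples, although arrays with the same number correlated more highly than arrays of the same group. Alternatives were other scalings, offsets, filters and priors, a replicate block, only the arrays compared, all probe sets of a gene averaged, and each array left out. Figures were drawn with matplotlib 3.10.9 in Python 3.11.15.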

Additional observations from a re-analysis of the deposited data

How the results depend on the processing

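The count of member probe sets past an adjusted p of 0.05 (limma) was 0 in all 3 comparisons under every alternative run, and the count of listed pathway genes was 0 with quantile scaling, with the replicate block and without each array in turn. With the replicate number as a block, the smallest adjusted p of a member was 0.8869 in hIMP1 Dmut minus mock and 0.9997 in the other comparisons, and EGR1 kept its difference of 1.08. Without mock replicate 1 the smallest was 0.7876 in hIMP1 Dmut minus mock. Counts at an unadjusted p under 0.05 lay between 0 and 4. The 6 members gave 18 differences at their brightest probe sets and 291 values over 17 settings, of which 22 had the other sign and 20 moved by more than the spread between arrays. In 9 of the 18 the sign held in every setting, but all settings reuse the same arrays. EGR1 in hIMP1 Dmut minus mock was among them, and it was chosen with that rise known. EGR3 there lay between 0.44 and 0.75. EGR4 there lay between 0.008 and 0.18, well within its SE of 0.48, so its sign carries no weight. NR4A1 minus mock turned positive only when all its probe sets were averaged, and NR4A3 in hIMP1 Dmut minus mock was -0.11 without mock replicate 1 and -0.20 without hIMP1 Dmut replicate 1. Keeping only probe sets above the 75th percentile left 2 member probe sets, both of EGR1, so the other members have no value there. Low signal limits EGR3, EGR4, NR4A1 and NR4A3, all close to the filter, and 2 arrays a group limit every difference.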
